A study of Mus musculus with 6 samples.

Results

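The 9 genes described here encode enzymes and an adaptor of T cell receptor signalling that have been linked to T cell anergy, the unresponsive state of a T cell that met antigen without adequate help. They are the diacylglycerol kinases Dgka and Dgkz, the ubiquitin ligases Cbl, Cblb, Rnf128, Itch, Nedd4 and Peli1, and the ligase adaptor Ndfip1. Their probe sets were taken from the platform annotation wherever it gave one of these symbols alone, which found all 9 genes, out of 18193 genes with such a symbol, in 26 of the 45037 probe sets tested. No measured value entered that choice of probe sets, but the 9 genes themselves were chosen with earlier results of these data known.

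Expression was measured on Affymetrix M430v2 arrays in splenic regulatory T cells (Tregs) of female NOD mice, a strain that develops autoimmune diabetes. In the treated group, 3 mice of genotype BDC2.5 TCR tg RAG1o/o Foxp3GFP received 37.5 µg of the anti-CD3 antibody KT3 intravenously once a day for 5 days, beginning when they were 17 days old, and Tregs were taken at 28 or 29 days of age, labelled 11 or 12 days after treatment. In the untreated group, 3 mice of genotype BDC2.5 TCR tg RAG1+/o Foxp3GFP were left without antibody and were sampled at the same ages. Every mouse thus carried the transgenic BDC2.5 receptor, which recognises an islet antigen, and a GFP reporter for Foxp3, and each array held 1 mouse. The sort kept CD4+ GFP+ cells and removed those with B220, CD8a or CD11b/c on their surface. Antibody and RAG1 genotype changed together between the groups, so their effects cannot be told apart.

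Diacylglycerol is made at the membrane when the T cell receptor activates phospholipase C, and it switches on RasGRP1, which leads to Ras and ERK, and protein kinase C theta, which leads to NF-kB. Diacylglycerol kinases end that signal by turning the lipid into phosphatidic acid. The ubiquitin ligases act on the proteins around the same signal: Cbl and Cbl-b tag receptor-proximal kinases and adaptors, GRAIL (encoded by Rnf128) sits in endosomal membranes, and Itch and Nedd4 use adaptors such as Ndfip1 to reach their substrates. Unlike the others, Nedd4 is known in mouse T cells to favour activation, by driving the breakdown of Cbl-b. In mice, loss of Itch or Ndfip1 is known to go with inflammation driven by T helper 2 cells.

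The sequence upstream of the transcription start is shown for the 3 members whose brightest probe set (the one with the highest mean) differed most between the groups, so that the kinases can be set beside Nedd4, which lay on the other side of 0. Each run covers 250 bases up to the most upstream start that RefSeq's table lists for the gene, in the GRCm38.p6 build of the C57BL/6J strain, not NOD, and reads 5′ to 3′ along the gene's strand. The Dgkz run lies at chr2:91963564-91963813 on the minus strand, the Dgka run at chr10:128745085-128745334 on the minus strand, and the Nedd4 run at chr9:72662081-72662330 on the plus strand. Capitals mark matches on either strand to the letters of 4 motifs: GCGNGGGCG for Egr factors, TGTTTAC for FoxO factors, TGGAAA for NFAT and GGGCGG for Sp1.
Dgkz: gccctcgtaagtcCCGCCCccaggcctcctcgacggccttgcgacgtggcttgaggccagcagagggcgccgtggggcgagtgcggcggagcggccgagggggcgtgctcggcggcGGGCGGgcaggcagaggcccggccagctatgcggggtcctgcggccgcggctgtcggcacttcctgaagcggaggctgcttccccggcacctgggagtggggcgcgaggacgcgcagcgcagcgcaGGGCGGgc
Dgka: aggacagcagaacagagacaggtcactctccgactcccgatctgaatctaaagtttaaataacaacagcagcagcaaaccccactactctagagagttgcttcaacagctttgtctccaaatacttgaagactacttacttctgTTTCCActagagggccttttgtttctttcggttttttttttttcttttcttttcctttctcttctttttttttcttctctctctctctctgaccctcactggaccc
Nedd4: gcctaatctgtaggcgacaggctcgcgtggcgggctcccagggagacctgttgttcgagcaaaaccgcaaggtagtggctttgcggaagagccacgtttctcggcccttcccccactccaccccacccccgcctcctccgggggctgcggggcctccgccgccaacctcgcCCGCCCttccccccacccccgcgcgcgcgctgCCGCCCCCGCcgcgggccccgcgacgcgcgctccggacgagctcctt
The Dgkz and Nedd4 runs were rich in G and C, at 77.6% and 74% of bases, and the Dgka run was not, at 41.2%, beside a median of 52% over 27025 genes. Dgkz held 3 Sp1 matches, Dgka 1 NFAT match, and Nedd4 2 Sp1 matches of which 1 overlaps its only Egr match. Over the same windows of all 27025 genes, 4.63% held the Egr letters, 3.06% the FoxO letters, 18.7% the NFAT letters and 33% the Sp1 letters. Table entries existed for 7 members, and of the 4 not printed Cbl held 1 Egr match and 3 Sp1 matches, Cblb and Peli1 2 Sp1 matches each, and Rnf128 1 Sp1 match. These are matches of letters and no measure of binding.

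Values below are log2 of the deposited RMA intensity, differences are the treated mean minus the untreated mean, and ± gives the SD over 3 arrays. Differences were tested with limma over all 45037 probe sets, and 0% of them passed a Benjamini-Hochberg adjusted p of 0.05, so none of the 26 member probe sets passed either. Their adjusted p ran from 0.961 to 0.995. The members are therefore described by their values, their 95% intervals and their unadjusted p. At an unadjusted p under 0.05, 1.53% of all probe sets were higher and 3% lower in treated Tregs, and 1 member probe set, of Dgkz, was higher and 0 were lower. The groups did not overlap with the treated arrays on top in 5.14% of all probe sets and with the treated arrays below in 5.02%, and among the members this held for 2 probe sets on top, 1 each of Dgkz and Cblb, and for 0 below. Both shares are small counts out of 26, so nothing is read from them about the members as a group.

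Arrays differed in the transcripts of other cells. The mean of 13 B cell markers was 6.64, 6.65 and 6.53 in treated replicates 1, 2 and 3, against 9.81, 9.79 and 7.15 in untreated replicates 1, 2 and 3. Thus 2 of the untreated arrays carried far more B cell transcript, 12 of the 23 B cell probe sets were lower in treated samples at an unadjusted p under 0.05, and the Ms4a1 probe set 1450912_at stood at 2.94, 2.99 and 2.72 in treated arrays, against 10.32, 9.82 and 5.83 in untreated arrays. The mean of 15 myeloid markers was 10.01, 8.81 and 9.71 in the treated and 9.50, 9.25 and 6.89 in the untreated arrays, with untreated replicate 3 lowest. The mean of 8 NK and cytotoxic markers was 7.70, 7.59 and 7.29 in the treated and 7.89, 8.15 and 7.11 in the untreated arrays. These genes went both ways, with 5 of 14 probe sets above 0 and 9 below, from −1.99 for Gzma to +1.22. The mean of 10 T cell and Treg markers was 11.45, 11.47 and 12.02 in the treated and 11.25, 10.60 and 11.84 in the untreated arrays, with untreated replicate 2 lowest. Of their 14 probe sets, 10 were above 0 and 4 below, from −0.36 to +1.19. Among them Foxp3 averaged 11.78 ± 0.57 in treated and 10.59 ± 0.58 in untreated Tregs, and Cd3e 12.05 ± 0.10 against 11.74 ± 0.10. Cd4 averaged 10.02 ± 0.34 against 9.66 ± 0.49 at 1419696_at and differed by +0.013 at the dimmer 1427779_a_at. Rag1, the recombinase gene deleted in the treated mice, read 6.68, 5.23 and 4.93 in treated and 7.61, 7.30 and 5.47 in untreated arrays at 1450680_at. Whether that probe set lies in the deleted part is not known here, so it checks nothing about the genotype. In such mixed RNA, fewer cells of a type and less RNA per cell cannot be told apart.

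Both diacylglycerol kinases linked to anergy had higher values in treated Tregs, and all 3 of their probe sets pointed that way with a median of +0.88. Dgkz, the isoform best known for restraining Ras signalling below the T cell receptor, measured 11.77, 12.39 and 12.10 in treated and 11.26, 10.51 and 11.74 in untreated arrays at probe set 1452169_a_at. All treated values were above all untreated values, though treated replicate 1 and untreated replicate 3 were only just apart. The means were 12.09 ± 0.31 and 11.17 ± 0.62, a 1.89-fold higher level in treated Tregs (difference +0.92, 95% interval 0.14 to 1.69, unadjusted p = 0.0268, limma adjusted p = 0.961). The other Dgkz probe set, 1426738_at, gave nearly the same difference, +0.88 (interval −0.17 to 1.94, unadjusted p = 0.0885). It measured 8.36, 7.81 and 9.28 in treated and 7.72, 6.91 and 8.18 in untreated arrays, so the groups overlapped.

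Dgka, the kinase whose transcript is known to drop when naive T cells are activated, measured 12.08, 11.82 and 12.80 in treated and 11.63, 10.75 and 12.41 in untreated arrays at its single probe set 1418578_at. Untreated replicate 3 lay above 2 of the 3 treated arrays, and untreated replicate 2 lay far below all others. The means were 12.23 ± 0.50 and 11.60 ± 0.83, a 1.55-fold higher level (difference +0.63, interval −0.41 to 1.68, unadjusted p = 0.194).

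How far the kinases stood apart depended on which arrays were used, treated ones included. Untreated replicate 2 was the lowest array for each of the 3 kinase probe sets, and it also had the lowest T cell marker mean. Without it the differences were +0.59 for Dgkz 1452169_a_at, +0.53 for Dgkz 1426738_at and +0.21 for Dgka. Without treated replicate 3 they were +0.91, +0.48 and +0.35 in the same order, and without untreated replicate 3 they were +1.20, +1.17 and +1.04. Without treated replicate 2 they were +0.77, +1.22 and +0.84. The unadjusted p of Dgkz 1452169_a_at was 0.0931 without treated replicate 2, 0.0574 without treated replicate 3, 0.0526 without untreated replicate 1 and 0.0686 without untreated replicate 2, so that each of these 4 arrays was needed to bring it under 0.05. Set against untreated replicate 3 alone, the untreated array with little B cell transcript, the Dgkz probe sets differed by +0.35 and +0.31 and Dgka by −0.18, with the single untreated array assumed to vary like the treated ones.

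Set against the T cell markers of the same array, the kinase differences were smaller, and their order could not change. Dgkz 1452169_a_at minus the T cell marker mean was 0.32, 0.92 and 0.077 in treated arrays and 0.013, −0.092 and −0.11 in untreated arrays, so that the groups still did not overlap. Dgka minus that mean was 0.62, 0.36 and 0.78 in treated arrays and 0.38, 0.15 and 0.57 in untreated arrays, which overlap. Subtracting the T cell marker mean moves every difference by the same amount, so that the median over all probe sets is −0.37 in place of +0.046. After it, Dgkz 1452169_a_at differed by +0.50 and 1426738_at by +0.47, and Dgka by +0.22, with unadjusted p of 0.338, 0.372 and 0.676. On that scale the intervals of all 3 kinase probe sets included 0 (−0.52 to 1.53 for Dgkz 1452169_a_at). Those of 2 other member probe sets lay wholly below 0, Nedd4 1451109_a_at at −1.10 (−2.13 to −0.076) and Itch 1459332_at at −1.06 (−2.08 to −0.032), each with a limma adjusted p of 0.87. All member intervals on that scale have the same width. They and their p thus reflect a variance shared by the probe sets, not each one's own spread. Nedd4 1451109_a_at minus the marker mean was −3.09, −3.40 and −4.13 in treated and −2.14, −1.05 and −4.13 in untreated arrays. Itch 1459332_at gave −4.30, −5.07 and −6.55 against −4.38, −3.94 and −4.44. Both overlap.

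**Figure D1:**
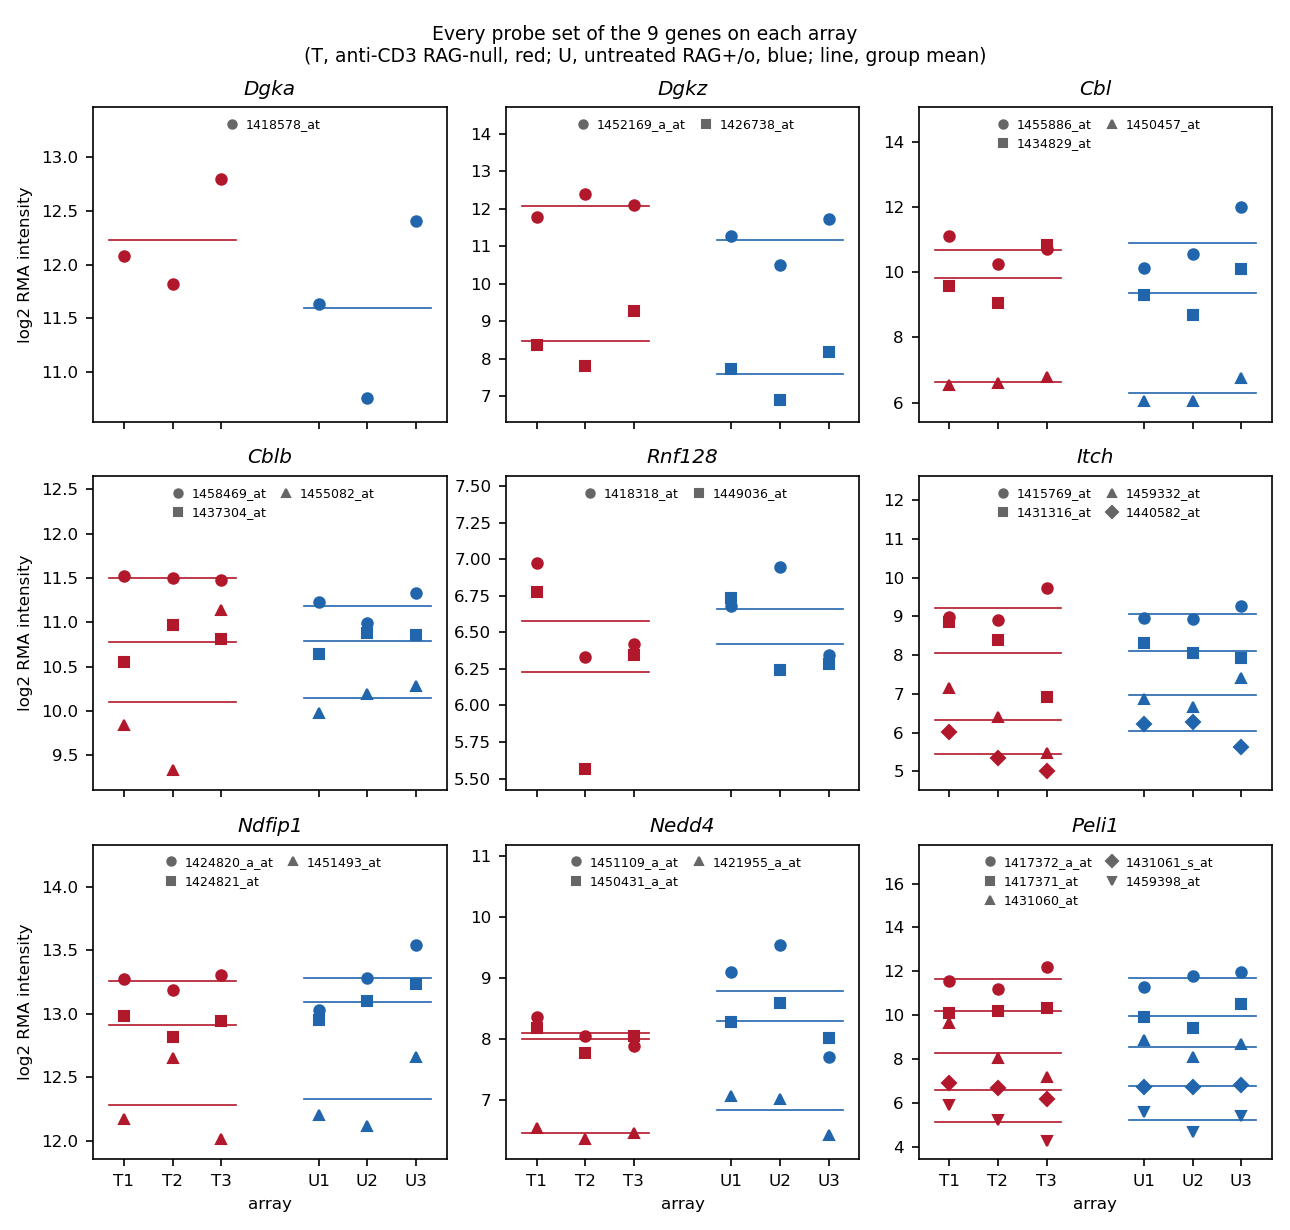
Log2 RMA intensity (y axis) of every probe set of the 9 genes on each array (x axis), with a panel per gene, treated arrays T1 to T3 in red left of untreated arrays U1 to U3 in blue, and lines at group means. Both Dgkz probe sets have higher treated means, with the U2 array lowest, and the 3 Nedd4 probe sets are highest in U1 and U2; y axes differ between panels.

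**Figure D2:**
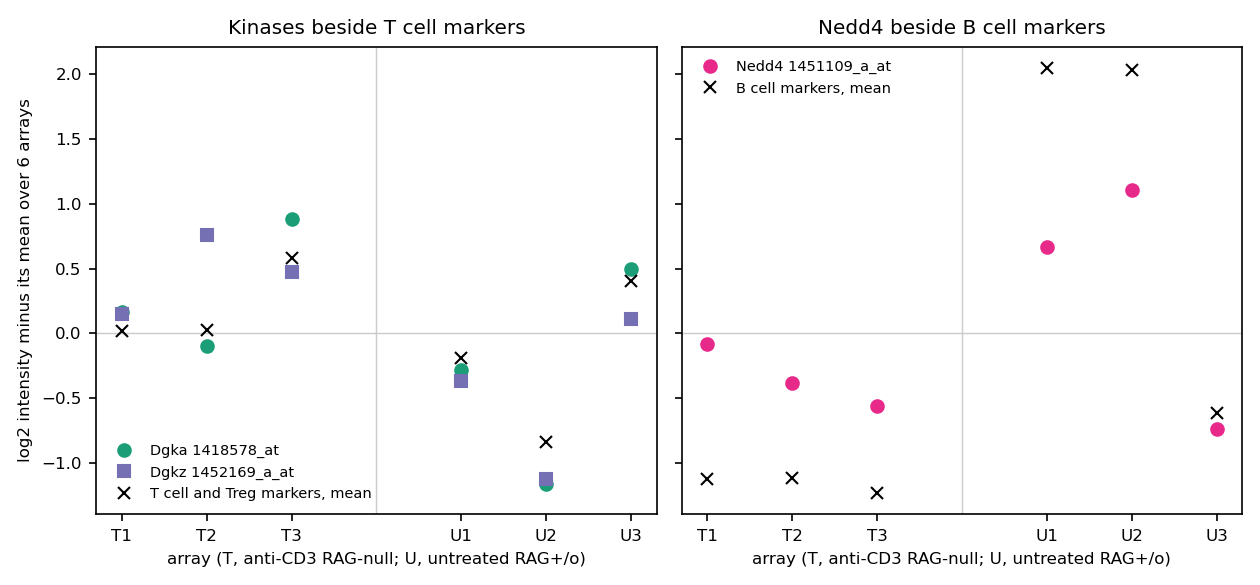
Left, the Dgka and Dgkz probe sets with the highest mean beside the mean of 10 T cell and Treg markers; right, Nedd4 beside the mean of 13 B cell markers, each as log2 intensity minus its own mean over the 6 arrays (y axis), by array (x axis). Dgka stays close to the T cell markers on all arrays, and Nedd4 is high on U1 and U2, the arrays on which the B cell markers are high. On U3 Nedd4 is the lowest of all arrays, while the B cell marker mean there lies above those of all treated arrays.

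The ligases and the adaptor had mostly small differences, more of them below 0 than above. Of their 23 probe sets, 5 had a difference above 0 and 18 below, with a median of −0.082 and a range from −0.69 to +0.46, and 0 had an unadjusted p under 0.05. Over all probe sets 26101 differences were above 0 and 18936 below, with a median of +0.046. Probe sets of 1 gene share their transcript, so the 23 are not independent.

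Among the Cbl proteins, which are RING ligases, Cblb had 1 of 3 probe sets higher in treated Tregs without overlap. Cblb encodes Cbl-b, known in mice for making T cell activation depend on CD28 costimulation. Probe set 1458469_at measured 11.52, 11.51 and 11.48 in treated and 11.23, 10.99 and 11.33 in untreated arrays. The treated arrays lay within a narrow band, SD 0.020, above the untreated ones, for a 1.25-fold higher level (difference +0.32, interval −0.055 to 0.70, unadjusted p = 0.0835). The other Cblb probe sets differed by −0.011 (1437304_at, interval −0.43 to 0.41) and −0.042 (1455082_at, interval −1.06 to 0.97). At 1455082_at treated replicate 3 read 11.14 and treated replicate 2 read 9.34. Cbl, the founding member of the family, had probe sets that disagreed in sign. At 1455886_at it measured 11.09, 10.24 and 10.72 in treated and 10.12, 10.55 and 11.98 in untreated arrays, with untreated replicate 3 the highest (difference −0.20, interval −1.34 to 0.93). At 1434829_at the difference was +0.46 (interval −0.76 to 1.68) and at 1450457_at +0.36 (interval −0.19 to 0.91), again with untreated replicate 3 the highest of the untreated arrays.

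Rnf128, which encodes GRAIL, a ligase first described in anergic mouse T cells, was close to the middle of all probe sets on these arrays, whose median mean was 6.46. Probe set 1418318_at averaged 6.57 ± 0.35 in treated against 6.66 ± 0.30 in untreated Tregs, a difference of −0.082 (interval −0.66 to 0.49). Probe set 1449036_at averaged 6.23 ± 0.61 and 6.42 ± 0.27 in the same order (difference −0.19, interval −0.95 to 0.57). The treated range contained the whole untreated range at both. Signals this low limit what the arrays can show about Rnf128.

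The HECT ligase Nedd4 had lower values in treated Tregs at all 3 of its probe sets, and its highest arrays, untreated replicates 1 and 2, were also highest for the B cell markers and for the NK and cytotoxic markers. At 1451109_a_at it measured 8.36, 8.06 and 7.89 in treated and 9.11, 9.55 and 7.71 in untreated arrays. Untreated replicates 1 and 2 were high, while untreated replicate 3 was the lowest of all 6 arrays (difference −0.69, interval −1.75 to 0.37, unadjusted p = 0.170). The other probe sets also had untreated replicate 3 as the lowest untreated array, and differed by −0.38 (1421955_a_at, interval −0.88 to 0.12) and −0.30 (1450431_a_at, interval −0.79 to 0.19). Without untreated replicate 3 the difference at 1451109_a_at was −1.23 (unadjusted p = 0.00197, adjusted p = 0.451), and against untreated replicate 3 alone it was +0.39. The NK and cytotoxic marker mean put the 6 arrays in the same order as Nedd4 1451109_a_at, whereas the B cell marker mean of untreated replicate 3, at 7.15, lay above those of all treated arrays. The part of the B cell and of the NK and cytotoxic transcripts in the values of Nedd4 was not tested.

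Itch, the HECT ligase named after the itchy mouse, gave differences that depended on the probe set. Its brightest probe set, 1415769_at, measured 8.99, 8.91 and 9.74 in treated and 8.95, 8.93 and 9.27 in untreated arrays (difference +0.16, interval −0.44 to 0.76). Treated replicate 3 was the highest array at that probe set and the lowest at the other 3 Itch probe sets, with 6.92 at 1431316_at, 5.47 at 1459332_at and 5.01 at 1440582_at. These differed by −0.045, −0.64 and −0.59 (intervals −1.15 to 1.05, −1.64 to 0.36 and −1.30 to 0.13).

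Ndfip1, the membrane adaptor that recruits and activates Itch and its relatives, was among the steadiest members. At 1424820_a_at it measured 13.27, 13.19 and 13.31 in treated and 13.03, 13.28 and 13.54 in untreated arrays, and the untreated range contained the treated one (difference −0.027, interval −0.45 to 0.40). The other probe sets differed by −0.18 (1424821_at, interval −0.55 to 0.19) and −0.045 (1451493_at, interval −0.60 to 0.51). These intervals do not include a 2-fold difference in either direction.

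Peli1, a RING ligase known in mouse T cells for tagging the NF-kB subunit c-Rel, had 5 probe sets, 1 above 0 and 4 below. At 1417372_a_at it measured 11.57, 11.18 and 12.20 in treated and 11.30, 11.80 and 11.97 in untreated arrays (difference −0.042, interval −0.75 to 0.67). At 1417371_at the difference was +0.24 (interval −0.41 to 0.90). The other 3 differed by −0.24 (1431060_at), −0.16 (1431061_s_at) and −0.084 (1459398_at), and at each of them treated replicate 1 was the highest and treated replicate 3 the lowest array.

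**Figure D3:**
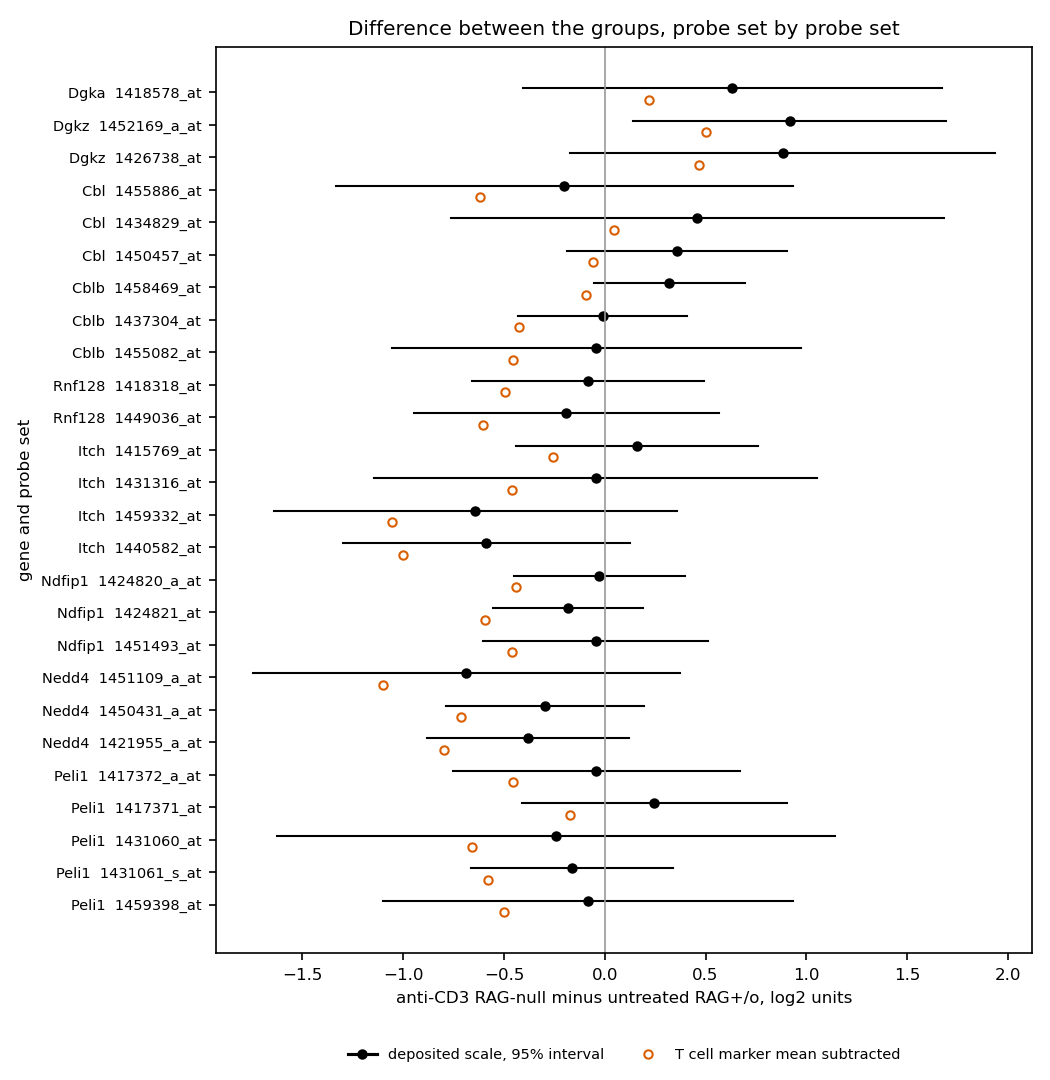
Difference of treated minus untreated Tregs in log2 units (x axis) for each of the 26 probe sets (y axis), with 95% intervals from limma (filled points), and the difference alone after subtraction of each array's T cell marker mean (open points). On the deposited scale 1 interval, of Dgkz 1452169_a_at, lies wholly above 0 and none below, and the 3 kinase probe sets have the highest differences. The subtraction moves all points by the same amount, so it cannot change their order.

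The other diacylglycerol kinases did not share the higher values of Dgka and Dgkz as a family. Their 6 further measured genes had 13 probe sets, 9 above 0 and 4 below, with a median of +0.026, of which 0 were higher and 1 lower at an unadjusted p under 0.05. That 1 was Dgkh, the eta isoform, whose probe set 1438310_at measured 9.98, 9.35 and 9.43 in treated and 10.40, 10.53 and 10.17 in untreated arrays. All treated values lay below all untreated ones (difference −0.78, interval −1.30 to −0.27, unadjusted p = 0.0087), but 2 further Dgkh probe sets differed by +0.21 and −0.12. Dgkd differed by +0.32 at 1439873_at (interval −0.087 to 0.73), where all treated values lay above all untreated ones, though only just. Of the 13 probe sets, 1 was higher and 2 lower without overlap, beside 5.14% and 5.02% of all probe sets. Their differences ran from −0.78 to +0.44. Dgke differed by −0.23 and Dgki by +0.16 at their probe sets of smallest p.

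Genes that make, sense or carry on the diacylglycerol signal went both ways. Of 46 probe sets for 17 measured genes, 1 was higher and 4 lower at an unadjusted p under 0.05, 0 passed adjustment, and the median was +0.15. Rasgrp1, the main diacylglycerol sensor upstream of Ras in T cells, differed by −0.99 at the dim probe set 1450143_at (unadjusted p = 0.00517), but by +0.078 at 1434295_at, where it measured 12.25 ± 0.37 in treated and 12.17 ± 0.39 in untreated Tregs. Rasgrp3, its relative in B cells, measured 5.35, 4.93 and 5.00 in treated and 9.14, 9.61 and 5.17 in untreated arrays at 1438030_at, high only on the 2 arrays with high B cell markers (difference −2.88). Map2k1, the ERK kinase MEK1, averaged 10.27 ± 0.10 in treated and 10.86 ± 0.29 in untreated Tregs (difference −0.59), and Rasgrp4 differed by +0.69.

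Relatives of the ligases gave few differences. In the NEDD4 family with its adaptors, 29 probe sets of 8 further genes had a median of −0.018, with 1 higher and 1 lower at an unadjusted p under 0.05. Wwp2 was the higher at +0.76 (9.06 ± 0.58 in treated and 8.30 ± 0.25 in untreated Tregs), and Smurf2, which tags TGF-beta receptors, the lower at −0.51 (10.51 ± 0.29 and 11.02 ± 0.12). At their probe sets of smallest p, Wwp1 differed by −0.56 and Nedd4l by −0.32. In the GRAIL family 14 probe sets of 8 further genes gave 0 at an unadjusted p under 0.05, with Rnf13 at −0.71, Rnf130 at +0.28, Znrf4 at +0.17 and Rnf148 at −0.11. Cblc differed by +0.13 and Peli2 by +0.26 at their probe sets of smallest p.

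Proteins that these ligases tag, or that regulate them, had 48 probe sets for 20 measured genes, with 1 higher and 4 lower at an unadjusted p under 0.05 and a median of +0.0061. The higher was Zap70, the kinase at the receptor's zeta chain, at +0.83 (1440178_x_at, named after its value was seen), with +0.82 and +0.29 at its other probe sets. Those lower were Traf6, an adaptor of NF-kB signalling (−0.93), Pik3r1, a regulatory subunit of PI3 kinase (−0.67), Bcl10, a partner in NF-kB activation (−0.65), and the adaptor gene Crk (−0.67). Other probe sets of Traf6 lay between −0.15 and +0.05, and those of Crk between −0.19 and +0.37.

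Transcription factors and further genes linked to anergy also went both ways, with 6 of 58 probe sets higher and 4 lower at an unadjusted p under 0.05 and a median of +0.062. Over all probe sets 1.53% were higher and 3% lower at that p. The list was chosen with earlier results of these data known, so nothing is read from its counts. Nr4a1, an orphan nuclear receptor induced by receptor signals, measured 10.37, 10.18 and 10.25 in treated and 9.61, 9.35 and 9.43 in untreated arrays (difference +0.81, unadjusted p = 0.00129). Of inhibitory receptors, Pdcd1 gave +1.67 and Lag3 +0.67, whereas Nrp1, a Treg surface receptor, differed by −0.98 at 1448944_at and −0.97 at 1448943_at. The others lower, named after their values were seen, were Btla, an inhibitory receptor gene (−0.84), and Foxo1, a transcription factor gene (−0.80 at 1416982_at). Foxo1 differed by +0.28, +0.15 and −0.025 at its other probe sets, the last its brightest. Also higher at that p, and named after their values were seen, were Ndrg1 (+0.50 at 1420760_s_at) and Nfatc1 (+0.53 at 1447085_s_at). Other probe sets of Ndrg1 lay between −0.41 and +0.43, and those of Nfatc1 between +0.13 and +0.40. Egr2 and Egr3, named here after their values were seen, are known to induce Cblb in anergic mouse T cells. Egr2 differed by −0.17 and −0.13 at its 2 probe sets, and Egr3 by +0.26 and −0.21.

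**Figure D4:**
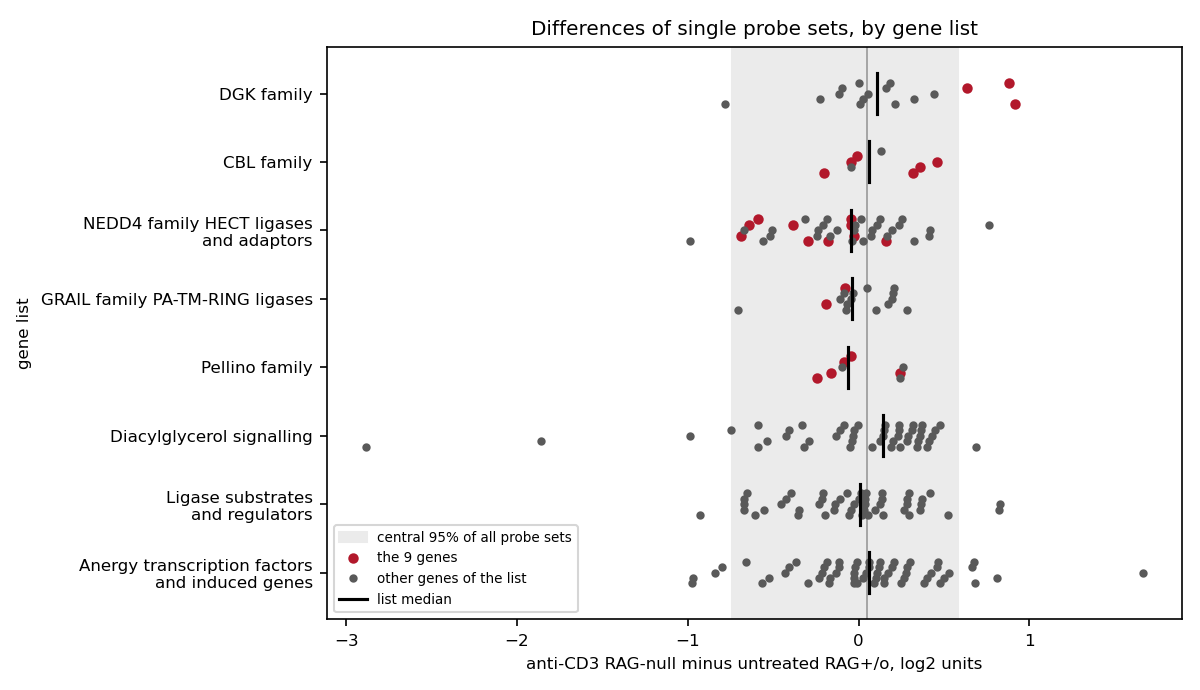
Difference of treated minus untreated Tregs in log2 units (x axis) for single probe sets of 8 gene lists (y axis), with the 9 genes in red, list medians as black bars and the central 95% of all probe sets, from −0.74 to +0.58, shaded. Red points outside the shaded range are the 3 kinase probe sets, while the medians of all 8 lists lie between −0.063 and +0.15.

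Likeness was measured as the root mean square distance between profiles over the 6 arrays, each centred on its own mean, for members whose brightest probe set spanned at least 1 log2 unit. For Dgka the closest of 18754 named probe sets above the median were Ehmt2 (distance 0.118) and Cd44 (0.120). For Dgkz they were Sdcbp2 (0.171) and Plaat3 (0.173), for Cbl Ttc14 (0.0945) and Sptbn1 (0.246), and for Peli1 Oas1c (0.0588) and Dennd10 (0.0836). For Nedd4 they were Ncr1, a receptor gene of NK cells (0.0758), and Ccdc50 (0.102). With so many probe sets and 6 arrays, close profiles are a description of these arrays only.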

How the data were processed

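Log2 values were computed from the deposited intensity values, 1 array per mouse and 3 arrays per group. Per the series' design text, the authors used the RMA algorithm in GenePattern, which removes background, makes arrays alike in distribution and combines probes into probe sets, so a change common to most transcripts would not be seen. The sources used here do not give its version. Per the labels' protocols, RNA was amplified in 2 rounds. The deposited values ran from 5.47 to 29584.9, a linear scale, and array medians from 85.3 to 92.4.

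Of 45101 probe sets, 64 controls were left out. Treated and untreated arrays were set against each other by limma 3.58.1 under R 4.3.3, using lmFit and eBayes over every probe set with no covariate, with Benjamini-Hochberg adjustment over 45037. The platform annotation gave 1 symbol to 34945 probe sets, several to 932 and none to 9160. The number of arrays limits precision, and p-values measure the spread between mice. With T cell markers subtracted, however, limma used a variance shared by all probe sets. Data were simulated with independent normal noise for 45037 probe sets and 3 against 3 samples, with 200 probe sets changed. On them the test called 16.4% of 2-fold and 70.8% of 4-fold changes. The simulation left out shifts shared by many probe sets, such as those of the B cell markers, so these rates are not the power of the real comparison.

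The members and gene lists were chosen with earlier results of these data known. Named were all members and, per list, up to 4 further genes with the smallest p; other probe sets of named genes were added after their values were seen. Alternatives covered the replicate block, 2 rescalings, a dim filter, eBayes with trend and robust, array weights, 1 probe set per gene, linear means and each sample left out. Subtraction of the T cell marker mean and untreated replicate 3 alone were added after the data were seen. Figures were drawn with matplotlib 3.10.9. Genes of the lists without a probe set of their own symbol were not analysed here.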

Additional observations from a re-analysis of the deposited data

How the results depend on the processing

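No member probe set passed the adjusted p of 0.05 under any alternative that was tested. The 3 kinase probe sets kept their direction under each of them except that Dgka turned against untreated replicate 3 alone. Over all probe sets, the count passing was 0 at first, 5 with array weights, 103 with the T cell marker mean subtracted, 2 against untreated replicate 3 alone, and from 0 to 59 with 1 array left out, 59 being without untreated replicate 3. Deviations of same-numbered arrays from their group means correlated at 0.45, 0.083 and 0.088. Treated replicates 1 and 3 correlated best with their same-numbered arrays, and treated replicate 2 with untreated replicate 3 (0.17). These values do not settle whether the numbers pair the samples, and the main fit took no pairing. With the replicate number as a block, 0 passed, 1159 probe sets were higher at an unadjusted p under 0.05 against 687 before, and 5 member probe sets reached that p against 1. Member probe sets at that p numbered 2 after quantile normalization, 3 with array weights, 2 with T cell markers subtracted (Nedd4 1451109_a_at and Itch 1459332_at, both lower), and 0 (without untreated replicate 1 or 2) to 7 (without untreated replicate 3) with 1 array left out. The 1 at that p without treated replicate 2 was Dgkz 1426738_at, and the 1 without treated replicate 3 was Cblb 1455082_at, neither being the first Dgkz probe set. The background moved too. Over all probe sets, 657 were higher and 1820 lower at that p without untreated replicate 3, beside 687 and 1350 in the main fit. These counts were 488 and 917 without untreated replicate 1, and 324 and 750 without untreated replicate 2. Member probe sets whose groups did not overlap numbered 1 with T cell markers subtracted, 9 against untreated replicate 3 alone, and 2 to 10 with 1 array left out. Groups of fewer arrays fail to overlap more often by chance. The share over all probe sets is not given here for the settings with fewer arrays. Their counts therefore cannot be set against the 2 of the main fit, and nothing is read from the rise. Probe sets higher at that p numbered 335 without dim probe sets, 1217 with array weights, 318 with 1 probe set per gene, 40 with T cell markers subtracted and 324 to 1081 with 1 array left out. Those lower numbered 899 without dim probe sets, 557 with 1 probe set per gene, 594 against untreated replicate 3 alone and 750 to 1820 with 1 array left out, beside 1350 before. With T cell markers subtracted, limma used a variance shared by all probe sets. The 103 passing and the counts at a p under that setting therefore do not reflect each probe set's own spread. Leaving out dim probe sets and keeping 1 per gene test fewer probe sets, and the cause of the other shifts was not tested.

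Directions turned, from differences that were short of the test, as follows. After quantile normalization these were Cblb 1437304_at (+0.087), Cblb 1455082_at (+0.064), Itch 1431316_at (+0.021), Ndfip1 1424820_a_at (+0.046), Ndfip1 1451493_at (+0.030), Peli1 1417372_a_at (+0.068). With array weights these were Cbl 1455886_at (+0.36), Rnf128 1418318_at (+0.14), Rnf128 1449036_at (+0.064), Itch 1431316_at (+0.24), Ndfip1 1424820_a_at (+0.086), Peli1 1417372_a_at (+0.13), Peli1 1431060_at (+0.37), Peli1 1459398_at (+0.16). With T cell markers subtracted these were Cbl 1450457_at (−0.057), Cblb 1458469_at (−0.095), Itch 1415769_at (−0.25), Peli1 1417371_at (−0.17). Against untreated replicate 3 alone these were Dgka 1418578_at (−0.18), Cbl 1434829_at (−0.27), Cbl 1450457_at (−0.12), Rnf128 1418318_at (+0.23), Itch 1415769_at (−0.055), Itch 1431316_at (+0.13), Nedd4 1451109_a_at (+0.39), Nedd4 1421955_a_at (+0.030), Peli1 1417371_at (−0.32). With linear group means these were Cblb 1455082_at (+0.16), Itch 1431316_at (+0.15), Peli1 1431060_at (+0.091), Peli1 1459398_at (+0.0088). With 1 array left out, 11 member probe sets kept their direction throughout and 15 turned at least once, running for Cbl 1455886_at from −0.58 to +0.35, Cbl 1434829_at from −0.046 to +0.85, Cblb 1437304_at from −0.11 to +0.10, Cblb 1455082_at from −0.56 to +0.34, Rnf128 1418318_at from −0.28 to +0.062, Rnf128 1449036_at from −0.46 to +0.14, Itch 1415769_at from −0.10 to +0.31, Itch 1431316_at from −0.45 to +0.52, Ndfip1 1424820_a_at from −0.15 to +0.10, Ndfip1 1451493_at from −0.23 to +0.12, Peli1 1417372_a_at from −0.32 to +0.19, Peli1 1417371_at from −0.021 to +0.53, Peli1 1431060_at from −0.92 to +0.32, Peli1 1431061_s_at from −0.32 to +0.036, Peli1 1459398_at from −0.46 to +0.34. The cause was not tested. Rnf128 1449036_at, Itch 1440582_at and Peli1 1459398_at had means below the median of all probe sets, and dim signal limits what they can show.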
